A study of Homo sapiens with 2 samples.

Results

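The centromere of chromosome 20 carried 1143 of the 24258 peaks (4.71%) called for TRF2 chromatin immunoprecipitation (IP) over its input. The cells were HCT116, a colorectal carcinoma cell line. A peak belonged to the set when its summit lay from 25.7 to 30.4 Mb on chromosome 20 of the human assembly hg38, the cytogenetic bands p11.1 and q11.1. The rule used position alone. Chromosome 20 had 1347 peaks in all, and 84.9% of them lay in these 4.7 Mb. The IP library came from cells fixed with 1% formaldehyde 72 h after plating, with chromatin sheared to about 300 to 400 bp and 5 μg of TRF2 antibody per 100 μg of chromatin. The input library was chromatin of the same line prepared without an antibody. A control siRNA appears in the name given to the deposited list, but no transfection is described in the labels. There was 1 library per group, so nothing could be tested between samples. Every interval given is an exact 95% interval and covers counting error only, as if peaks were independent. A peak list holds no expression values, so the identity of the cells was not checked against markers.

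TRF2, encoded by TERF2, is a member of shelterin that recognises duplex telomere repeats and shapes the chromosome end into a protected loop. Centromeres are instead built on alpha satellite, a tandem repeat organised in higher-order arrays on which the centromeric histone CENP-A and the kinetochore assemble. In hg38 the cores of human centromeres are modelled sequences assembled from satellite reads, and short reads from such arrays often fit many positions equally well. The sources used here do not say how such reads were placed, so a position inside an array may stand for several copies of a repeat.

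The DNA of the peaks themselves was not used here. Among the promoters available for the interval, that of FAM242A lies closest to a summit. FAM242A is a long non-coding RNA gene with a summit just upstream of its start. Also given is miR-663a, the only microRNA annotated in the interval, whose gene lies 13.3 kb from the closest summit. The FAM242A promoter lies at chr20:30361926-30362225 on the minus strand (GRCh38.p14, RefSeq), with the bases from the transcription start onward in capitals. The mature miR-663a lies at chr20:26208243-26208264 on the minus strand (RefSeq), with its seed, bases 2 to 8, in capitals.
FAM242A promoter: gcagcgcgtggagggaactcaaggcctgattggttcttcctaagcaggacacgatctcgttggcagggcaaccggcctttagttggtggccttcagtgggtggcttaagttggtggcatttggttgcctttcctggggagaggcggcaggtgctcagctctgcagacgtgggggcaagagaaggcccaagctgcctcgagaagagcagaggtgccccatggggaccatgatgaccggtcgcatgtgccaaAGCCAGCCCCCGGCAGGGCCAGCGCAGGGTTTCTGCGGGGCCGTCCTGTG
hsa-miR-663a: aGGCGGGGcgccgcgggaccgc

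Peaks were spread very unevenly over the interval, and most lay where no gene is annotated. The annotation has a stretch of 2.33 Mb with no gene, from 26251589 to 28580632, between LOC124904967, a long non-coding RNA gene, and the pseudogene FRG1CP. It held 861 of the 1143 peaks, a density of 369.7 per Mb (345 to 395). The gene-bearing side toward the long arm, 1.82 Mb, held 279 peaks, or 153 per Mb (136 to 172). The gene-bearing side toward the short arm, 0.552 Mb, held 3 peaks, or 5.44 per Mb (1.12 to 15.9). Peaks were 2.41 times as dense in the gene-free stretch as on the long-arm side (2.1 to 2.77). Peaks are called strong here when their −log10 q reached 5. Among strong peaks the ratio was 2.60 (1.78 to 3.89), and among peaks with a fold of 5 or more it was 1.75 (1.29 to 2.39).

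Density also varied within the gene-free stretch. Its first 3 whole windows of 100 kb, from 26.3 to 26.6 Mb, held 8, 6 and 7 peaks. The 19 consecutive windows that followed, from 26.6 to 28.5 Mb, held 829 peaks, 72.5% of the set. These windows were delimited after their values were seen, as the longest run with at least 30 peaks in each. Their counts ran from 36 to 57 with a median of 41, none below 30 by the way the run was chosen. Strong peaks in them numbered 3 to 15 per window, and the median fold over input stayed between 3.43 and 4.30. On the long-arm side 18 windows held 0 to 61 peaks, with a median of 11.5 and a variance of 15.3 times the mean. Peaks clustered there, so intervals that cover counting error alone are too narrow for comparing such regions.

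**Figure D1:**
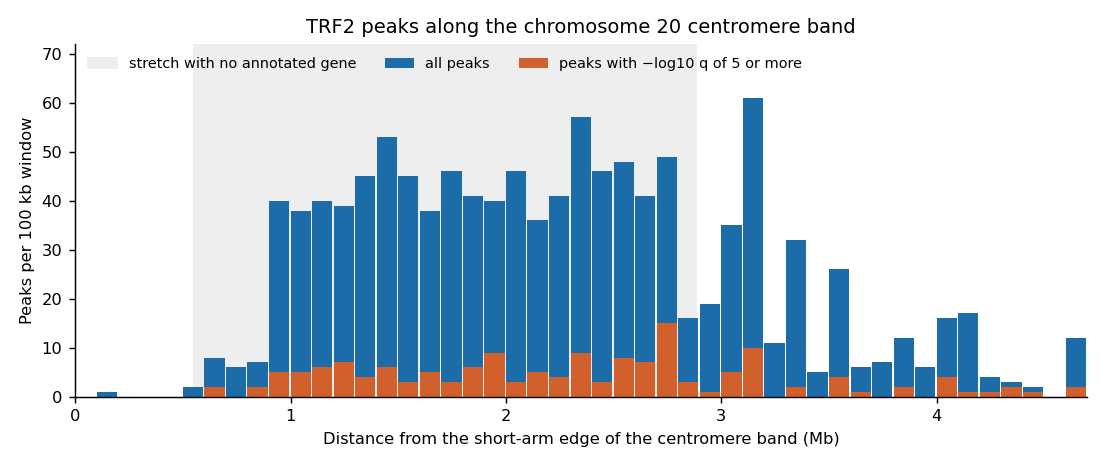
Peaks per 100 kb window (y axis) along the centromere band of chromosome 20 (x axis, distance in Mb from the short-arm edge), all peaks in blue and those with a −log10 q of 5 or more in orange, with the gene-free stretch shaded. The 19 windows of the run chosen for at least 30 peaks each hold 36 to 57, and on the long-arm side counts range from 0 to 61.

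The fullest window lay on the long-arm side, from 28.8 to 28.9 Mb, with 61 peaks of which 10 were strong. The next 4 were 28.0 to 28.1 Mb (57 peaks), 27.1 to 27.2 Mb (53), 28.4 to 28.5 Mb (49) and 28.2 to 28.3 Mb (48). Together these 5 of 47 windows held 268 peaks, or 23.4% (21.0% to 26.0%), and 5 windows held none. The longest stretch without a summit ran for 412 kb, from 25809342 to 26221606, over the FAM182A and MIR663AHG genes. The next longest, 187 kb from 30164648 to 30352077, lay near the long-arm edge. When the set was divided wherever 30 kb passed without a summit, it fell into 16 clusters. One of them, from 26454389 to 28645934, held 875 peaks (76.6%). Past it, 107 peaks clustered within 216 kb from 28726534, 35 within 100.2 kb from 29025125 and 26 within 87.8 kb from 29206262.

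The 4 deepest peaks sat together at the long-arm end of that run, and a shallower group of high-input peaks sat at its other end. Depth is given as the IP pileup at the summit, in reads, and as the input background used there, scaled to the IP. Both were worked back from the fold and p-value that the authors' caller gave. The background of a peak was 10 or more at 24 members (2.1%), and 16 of these formed 2 loci of 8 peaks each. The first, from 26600421 to 26607646, had IP pileups of 31 to 51 reads over backgrounds of 10.7 to 24.3. The second, from 28494705 to 28498703, had IP pileups of 61 to 110 reads over backgrounds of 15.2 to 44.0, which corresponds to 27 to 78 input reads. Between the loci 812 peaks lay at 430.3 per Mb (401 to 461). Of the gene-free sequence outside them, the 0.349 Mb before the first locus held 60.2 per Mb (37.3 to 92.0), and the 0.0819 Mb after the second held 134 per Mb (67.0 to 240.2). The loci were picked out after their values were seen.

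The median fold was low at both loci beside a high pileup. The loci were chosen for high background, which divides the fold, so low folds go with that choice. The first had a median fold of 2.38 and 1 strong peak of 8. The second had a median of 3.03, a range of 2.27 to 4.87 and 8 strong peaks of 8. Over the whole set the median fold was 3.97. The widest and deepest peak of the set, 653 bp from 28495346 to 28495998, had 110 IP reads over a background of 37.2, a fold of 2.90. The next widest were 529 bp from 27372998 to 27373526 (14 reads, fold 6.80) and 510 bp from 29085481 to 29085990 (9 reads, fold 4.88), both outside these loci. Neighbours of the widest peak, from 28496853 to 28497019, 28494705 to 28495131 and 28497781 to 28498050, had the highest backgrounds of the set, 44.0, 41.7 and 38.9. Their IP pileups were 101, 98 and 94 reads and their folds 2.27, 2.32 and 2.38. The highest −log10 q of the set, 25.4, also belonged to the second locus, at 28496590 to 28496681 (78 reads over 15.2, fold 4.87). The list as a whole reached 138 reads and a background of 77.8, so the set stayed below both maxima. The fifth deepest peak lay inside the run, at 27504642 to 27504758, with 91 reads over 24.3 and a fold of 3.64. Another peak inside the run, from 28308122 to 28308207, had 88 reads over 27.6, and on the long-arm side the deepest, from 28889641 to 28889866, had 53 reads over 7.33.

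**Figure D2:**
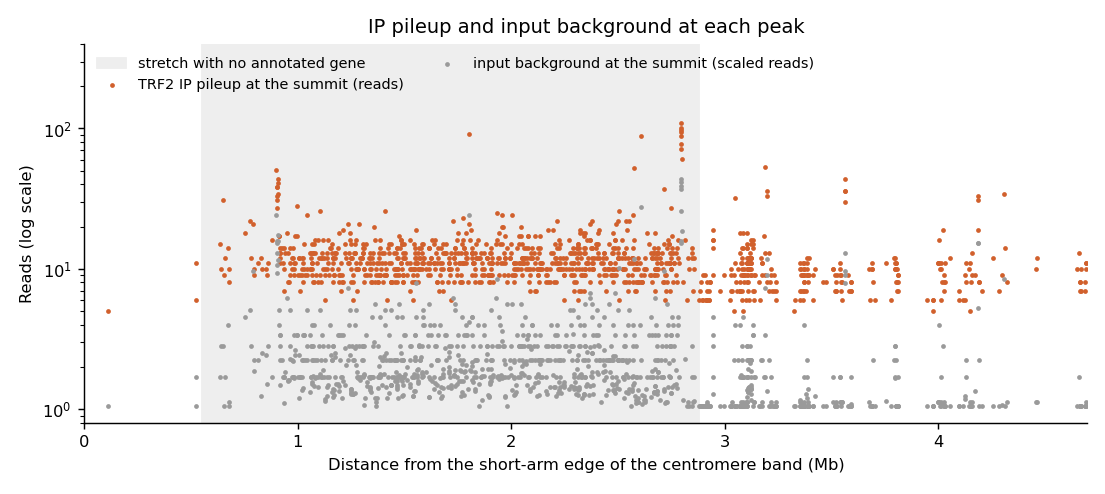
IP pileup (orange, reads) and input background (grey, scaled reads) at each summit on a log scale (y axis), along the band (x axis, distance in Mb from the short-arm edge), 1 pair of points per peak. Groups of peaks with high pileup and background stand at the ends of the run, reaching 51 and 110 reads, and single peaks inside it reach 91 and 88 reads, while the median pileup of the set is 11 reads.

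Most peaks of the set were shallow. Over all 1143 members the pileup had a median of 11 reads (quartiles 9 and 13, range 5 to 110) over a median background of 1.69, against a median of 11 reads (quartiles 8 and 19) over 1.69 in the whole list. The fold had a median of 3.97 (quartiles 3.38 and 4.76), against 4.06 (3.41 and 5.02) in the whole list. A fold of 5 or more was reached by 204 members, 17.8% (15.7% to 20.2%), against 25.2% of all listed peaks. Strong peaks numbered 156, 13.6% (11.7% to 15.8%), against 30% of all listed peaks. At a q-value under 0.05 there were 892, or 78.0% (75.5% to 80.4%), against 79.3% of all. The other members fell short of it, with a −log10 q down to 0.23. The lowest −log10 p was 3.01, both in the set and in the whole list. Members thus met the looser threshold about as often as the list, and the stricter one less often. The median width was 102 bp, 166 members had the smallest width of 69 bp, and 24 exceeded 300 bp.

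The gene-free stretch and the long-arm side differed in input background. The input background was at its genome-wide minimum of 1.05 at 8 of 861 peaks in the gene-free stretch (0.929%, 0.402% to 1.82%), and at 129 of 279 on the long-arm side (46.2%, 40.3% to 52.3%). The median background was 1.95 in the gene-free stretch and 1.13 on the long-arm side, and the median pileup was 11 and 9 reads in the same order. The median fold was 3.93 in the gene-free stretch and 4.14 on the long-arm side, and a fold of 5 or more was reached by 16.4% (14.0% to 19.0%) in the gene-free stretch and 22.6% (17.8% to 27.9%) on the long-arm side. The strong share was 13.9% (11.7% to 16.4%) in the gene-free stretch and 12.9% (9.20% to 17.4%) on the long-arm side, so a difference in this share was not detectable. All 3 peaks of the short-arm side were weak, with 5, 11 and 6 reads and folds of 2.93, 4.46 and 3.41.

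**Figure D3:**
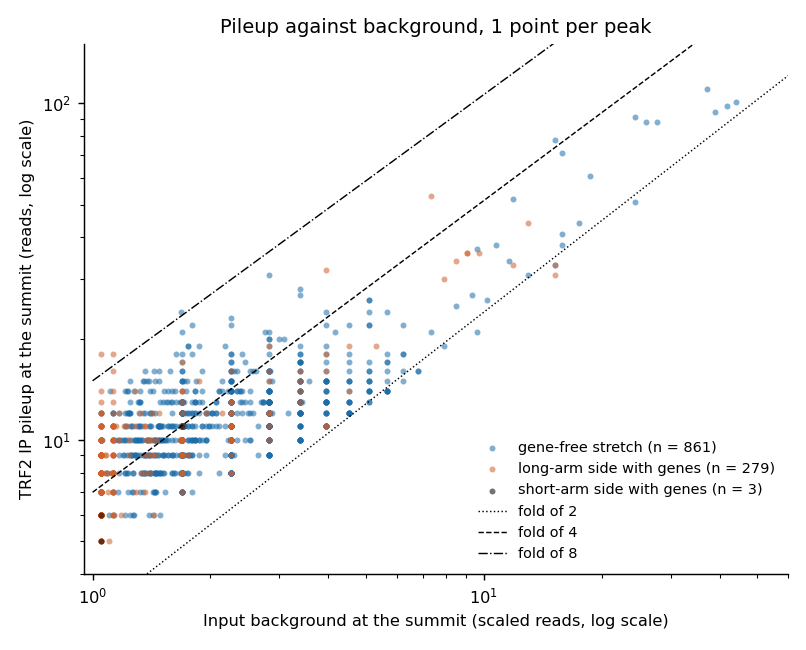
IP pileup (y axis, reads) against input background (x axis, scaled reads), both on log scales, 1 point per peak, coloured by side of the band, with lines at folds of 2, 4 and 8. Points of the long-arm side stack at the minimum background of 1.05, and those of the gene-free stretch spread to higher backgrounds.

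Members made up 4.71% of the 24258 listed peaks, but by fold only 6 of the top 1000 were members. The highest, 9.32, belonged to the peak from 27655335 to 27655407, with 24 reads over a background of 1.68, and 586 peaks elsewhere in the list had a higher fold. The next were 28802911 to 28802994 (fold 9.27, 18 reads over 1.05) and 28784112 to 28784224 (8.93, 18 reads over 1.13), both on the long-arm side, within the cluster that starts at 28726534. The fourth, 26351295 to 26351374, had a fold of 8.38 with 31 reads over 2.82, and lay 99.8 kb from LOC124904967, the closest gene. Peaks starting at 28237853, 28192993, 29702441, 27476469, 30014387 and 27894365 completed the 10, with folds of 8.24, 8.17, 7.99, 7.37, 7.32 and 7.27. Of the 10, 6 lay in the gene-free stretch and 4 on the long-arm side, and none lay in a gene. All 10 had a −log10 q between 8.25 and 17.8. The lowest folds were 1.97, 2.06 and 2.08, at 29885355, 26600421 and 26488648, where backgrounds were 15.2, 24.3 and 9.59.

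Genes in the interval are mostly pseudogenes and long non-coding RNAs, with no protein-coding gene among 47 annotated. A summit lay in or within 3 kb of 8 of them (17.0%, 7.65% to 30.8%), against 3.08% of all genes in the annotation. Of 6 transcribed pseudogenes 4 had one, of 17 long non-coding RNA genes 3, of 23 other pseudogenes 1, and the microRNA gene had none. The interval was dense in peaks, so this share says nothing of a preference for genes.

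All 4 FRG1 pseudogenes of the interval carried summits. FRG1, their parent on chromosome 4, lies in the region linked to facioscapulohumeral muscular dystrophy, and copies of that region are scattered near several centromeres. FRG1DP (29080390 to 29096832) had 10 summits with folds of 3.49 to 6.34 and 7 to 12 reads, 1 of them strong. FRG1CP (28580633 to 28602665) had 6 with folds of 3.41 to 4.88, all at the minimum background of 1.05 and none strong. FRG1EP (29475879 to 29497334) had 5 with folds of 2.88 to 4.11, one of them 1832 bp outside the gene, and none was strong. FRG1BP (30377164 to 30419843) crosses the edge of the band, and had 7 with folds of 3.41 to 5.85, 2 of them strong. Only its first 5 summits are members. The edge passes between the last member, at 30393507 to 30393575 (fold 5.17, 10 reads), and the first peak beyond it, at 30410796 to 30410892 (fold 3.41, 6 reads).

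Per length the 4 pseudogenes differed, with FRG1DP the densest. Including 3 kb on either side, FRG1DP had 4.46 summits per 10 kb, FRG1CP 2.14, FRG1EP 1.82 and FRG1BP 1.44. The whole long-arm side had 153 per Mb. In matching units FRG1BP lay slightly below the rate of that side, FRG1EP and FRG1CP somewhat above it, and FRG1DP furthest above it. Each rate rests on only 5 to 10 summits, and no interval was computed. Whether any of them differs from the rate of that side was not tested. The summits did not fall at 1 shared place: measured from the first coordinate, those of FRG1CP spread from 0.435 to 20.5 kb, those of FRG1EP gathered from 19.9 to 23.3 kb after a single one at 1.91 kb, and those of FRG1BP began at 9.29 kb. The table gives no strand for these genes, so starts and ends were not told apart. The parent FRG1 and the 5 other FRG1 pseudogenes of the annotation each had 1 to 5 summits within 3 kb as well, none of them strong. These copies resemble each other closely, so reads may have been shared between them.

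**Figure D4:**
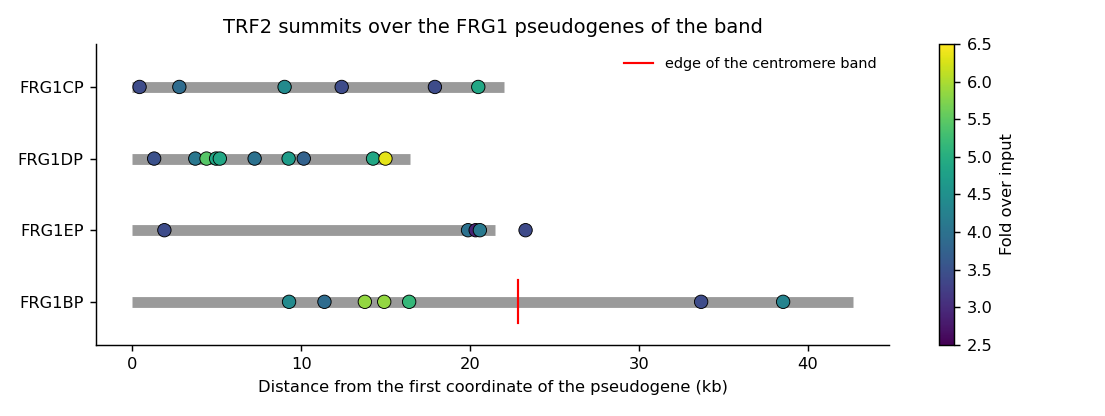
Summits within 3 kb of the 4 FRG1 pseudogenes of the band (points, coloured by fold over input), placed by distance in kb from the first coordinate of each pseudogene (x axis), with the gene span as a grey bar and the edge of the band as a red line. FRG1DP has 10 summits over 16.4 kb, and in FRG1EP 4 of 5 lie near the last coordinate.

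Other relatives of the same chromosome 4 region had no summit within 3 kb. The 6 DUX4-like pseudogenes, DUX4L32 to DUX4L37, lay 4.97 to 30.04 kb from the closest summit, and FRG2EP lay 11.3 kb away. These genes are short, 0.728 to 1.53 kb for the DUX4-like copies and 2.89 kb for FRG2EP. The 4 FRG1 pseudogenes span 16.4 to 42.7 kb, and a longer gene can meet more summits. The contrast with FRG1 thus shows no preference between these families. The 3 fragments of CFTR, the chloride channel gene mutated in cystic fibrosis, lay 6.38 to 110.1 kb away. Among ribosomal RNA pseudogenes, RNA5SP532 had a summit 2750 bp away (fold 4.25, 9 reads), and LOC110467538, a copy of the 18S sequence, lay 4.25 kb from one. LOC110467521, a pseudogene next to LOC110467538, lay 3.05 kb from that same summit, so the 3 kb limit draws a fine line here.

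Among the long non-coding RNA genes FAM242A (30323311 to 30361975) had 3 summits within 3 kb. Upstream of its start, 405 bp from it and 105 bp outside the promoter printed above, was the peak from 30362330 to 30362408, with 13 IP reads over a background of 1.69 (fold 5.20, −log10 q 4.71). The others, inside the gene at 30352013 to 30352100 and 2992 bp outside it at 30364901 to 30365007, had 10 and 8 reads and folds of 5.37 and 4.39. LOC105379477 had 1 summit, at fold 5.59 with 11 reads, 5765 bp downstream of its start, and LOC105379476 had 1 at fold 3.41 with 6 reads. None of these 5 was strong. The FAM242A promoter held neither the telomere unit TTAGGG nor the fixed bases of the CENP-B box, the motif bound by the centromere protein CENP-B, on either strand. TTAGGG was present in 9.05% and the CENP-B box in 0.0683% of 35116 promoters of the same length. None of the 11 promoters with a sequence for the interval's genes held either motif. No promoter among them overlapped a peak, so this search says nothing of motifs in the peaks.

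MIR663A (precursor 26208186 to 26208278) had no summit within 3 kb. The closest, at 26221557 to 26221640, lay 13.3 kb away and was the strongest of the 3 peaks on the short-arm side, with 11 reads over 1.69. Its host gene MIR663AHG lay 12.4 kb from the same peak. Peaks of 5 or 6 reads were the shallowest listed, so weaker signal at this gene was not detectable at this depth.

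Compared with other centromeres, chromosome 20 had many peaks of modest strength. Its density of 243 peaks per Mb (229 to 258) ranked 4th of 24, below chromosomes 13 (1382), 1 (584) and 8 (379). Against the centromere bands of all other chromosomes together, 159 per Mb, the ratio was 1.53 (1.44 to 1.62). Among strong peaks alone that ratio was 0.668 (0.566 to 0.784), and of the 4382 strong peaks of the other bands 1783 lay on chromosome 13 and 1021 on chromosome 1. With those bands left out, the ratio was 2.29 (2.15 to 2.43) over all peaks and 1.73 (1.46 to 2.04) over strong peaks. The strong share of 13.6% ranked 18th of 23 bands with peaks. It lay close to chromosomes 8 (13.7%, 12% to 15.6%) and 9 (13.5%, 11.1% to 16.3%), and far below chromosomes 13 (53.8%, 52.0% to 55.5%) and 1 (51.4%, 49.2% to 53.6%).

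**Figure D5:**
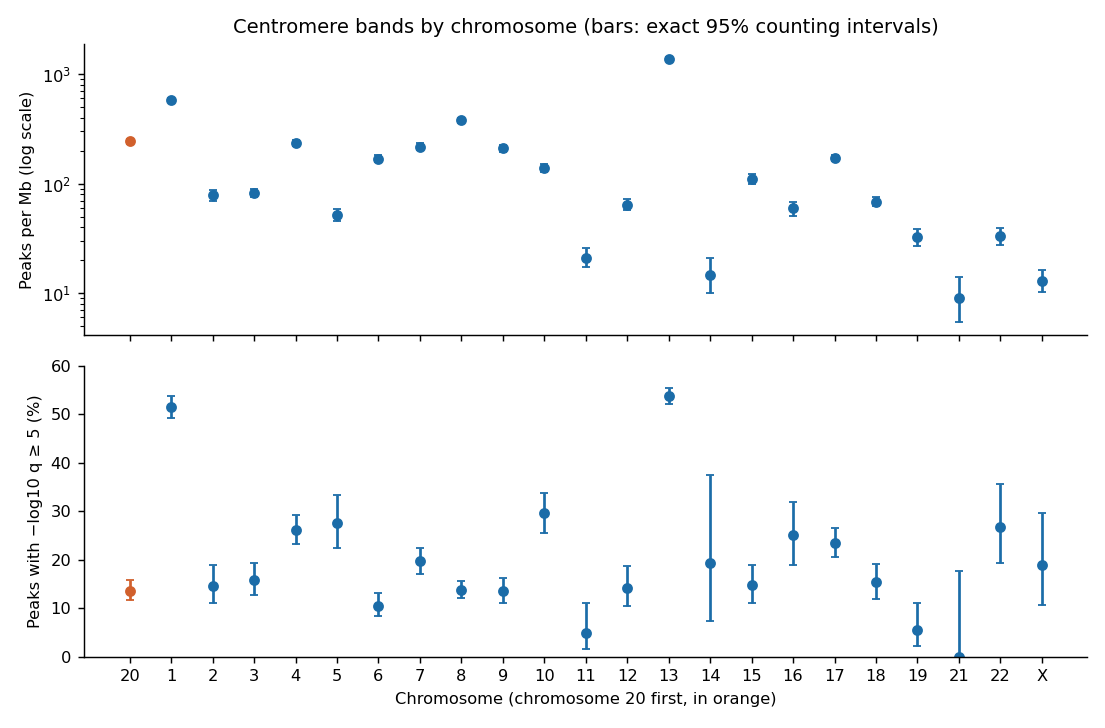
Peaks per Mb on a log scale (upper panel) and the strong share, peaks whose −log10 q reached 5, (lower panel) for the centromere band of each chromosome with peaks, chromosome 20 in orange, with exact 95% counting intervals. Chromosome 20 has 243 peaks per Mb and a strong share of 13.6%, below the shares of 53.8% and 51.4% on chromosomes 13 and 1.

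The comparison was repeated among peaks of equal recovered background, since the fold is computed from the background. It covered the minimum and whole numbers from 2 to 8 input reads, and left out all other peaks. Peaks at the minimum may still differ in input reads below it. At the minimum background, the 139 members had a median pileup of 8 reads and 12.2% were strong, against 8 reads and 11% in the other bands. At a background of 5 input reads, the 91 members had a median of 12 reads and 7.69% were strong, against 15 reads and 37.5% of 682 peaks in the other bands. Without chromosomes 13 and 1 the other bands had a median of 12 reads and a strong share of 18.1%, over 320 peaks. At 7 input reads the medians were 13 reads on chromosome 20 and 18 in the other bands, or 15 without chromosomes 13 and 1. Part of the gap at higher input depth thus went with chromosomes 13 and 1.

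Spacing between summits showed no preferred distance in bins of 10 bp. Neighbouring summits lay a median of 1680 bp apart (quartiles 682 and 3469 bp), and joining peaks within 1 kb of each other left 704 loci, of which 452 were single peaks. Within 10 kb there were 4861 pairs of summits, with a median of 5 pairs per bin of 10 bp. The fullest bins, starting at 3950 and 4140 bp, held 13 pairs each, and those at 660, 3830 and 5540 bp held 12 each. The variance between bins was 1.11 times the mean on chromosome 20, against 2.55 on chromosome 1, 1.59 on chromosome 13 and 1.06 on chromosome 8. The median bin held 14 pairs on chromosome 1, 70 on chromosome 13 and 12 on chromosome 8. For the same relative unevenness this ratio grows with the count per bin, so it does not rank the chromosomes. Distances within 10 bp of a multiple of the alpha satellite monomer length made up 12.6% of pairs, against 12.3% of all possible distances in that range. The share was 12.3% on chromosome 13 and 12.4% on chromosomes 1 and 8, so these bands showed no clear excess either. Most summits rest on few reads from fragments of about 300 to 400 bp, so their placement may be coarser than 10 bp. Small departures from the monomer length would also add up over 10 kb. The count thus cannot tell whether summits follow the monomer spacing.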

How the data were processed

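The authors deposited 1 peak list of the TRF2 IP over its input on hg38. The submitters' processing notes name ChIPseeker 1.36.0, HOMER, MACS2 2.1.0 and Bowtie2 2.3.2. Their settings and filters, and how duplicate or multiply placed reads were treated, are not stated there. The deposited score equals the −log10 p times 10, cut to a whole number. The deposited fold is the ratio of IP pileup plus 1 to input background plus 1 at the summit, and the deposited −log10 p and −log10 q are the peak caller's values there. All are the authors' own values, used within the list to describe, rank or filter.

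Pileup and background were recovered from fold and p, taking the p-value as a Poisson upper tail. Whole-number pileups fitted all peaks within 0.001 on −log10 p. At 589 members (51.5%) the background was a whole number of steps of 0.564, each taken as 1 input read. Values within 0.02 of a whole number counted as whole. At 139 members (12.2%) it was the genome-wide minimum, and at the others it fell between steps. Those in between are not counts of input reads at the summit. Depth rests on these pileups, since no library totals were used here. The recovery and the distance counts were tested on simulated data. Bands came from circlize 0.4.16 (R 4.3.3), and genes and sequences from RefSeq tables (GRCh38.p14); promoters span 250 bases before to 50 after a start, and 11 of 47 genes of the interval had one. Intervals are Clopper-Pearson, exact Poisson or conditional binomial. Coordinates are 1-based. Tools were matplotlib 3.10.9, pandas 2.3.3, scipy 1.17.1 and numpy 2.4.6 under Python 3.11.15.

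Members, thresholds and gene lists were chosen with earlier results of these data known. Named items are the 10 members of highest fold, the 5 deepest, the 3 widest, the 3 of highest background and of lowest fold, those nearest each edge, every gene with a summit within 3 kb, the microRNA, the 5 fullest windows and the 5 most frequent distances, with ties to the higher −log10 q. The peak of highest −log10 q, the deep loci and the other genes were named after their values were seen.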

Additional observations from a re-analysis of the deposited data

How the results depend on the processing

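No paired analysis was possible because there was 1 library per group, and no library could be left out. Placing peaks by midpoint or by an overlap of 1 bp gave 1143 members each. With peaks of a q-value under 0.05, density was 189.8 per Mb, the median fold 4.30 and the density ratio to the other bands 1.44. With strong peaks only, there were 156 members at 33.2 per Mb with a median fold of 5.85, in 138 loci; the ratio to the other bands turned to 0.668, the 5 fullest windows held 32.7% and 2 genes had a summit. With peaks of fold 5 or more the ratio was 1.04 (0.902 to 1.2), an interval of counting error that includes equal densities. Without chromosomes 13 and 1, chosen after seeing the data, it was 2.29, and 1.73 for strong peaks. At a −log10 q of 10 or more the strong share was 2.01%. With nothing added to pileup and background the median fold was 5.72, since adding 1 lowers the fold most where backgrounds are low. The 5 fullest windows held 15.3% at 50 kb and 49.6% at 250 kb. Joining peaks within 200 bp gave 1060 loci and within 5 kb 172. The fullest distance bin moved to 7520 bp with bins of 20 bp and to 280 bp with strong peaks. Within 10 kb 21 genes had a summit, and inside the gene 7. Peaks of 5 to 11 reads are the bulk of the set, which limits every fold given for a single peak.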

Other observations

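The flanks of the band differed sharply. The band averaged 243 peaks per Mb but was sparse at both edges, with 5.44 per Mb on the gene-bearing short-arm side and 4, 3, 2, 0 and 12 peaks in the last 5 windows of 100 kb before the long-arm edge. None was listed in the 2 Mb beyond the short-arm edge, which allows up to 1.84 per Mb by the exact Poisson interval. The closest peak on that side, from 22899951 to 22900019, had a fold of 4.39 with 8 reads. The 2 Mb beyond the long-arm edge held 168 peaks, 84.0 per Mb (71.8 to 97.7). Peaks inside the band were on average denser than these and weaker. The strong share was 13.6% inside the band and 64.9% (57.2% to 72.1%) beyond the long-arm edge, the median fold 3.97 inside and 5.6 beyond, and the highest fold 9.32 inside and 21.1 beyond.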
